A study of Macaca mulatta with 10 samples.

Results

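The dissected centre of differentiating embryonic stem (ES) cell colonies was set against the unseparated culture of the same stage, on 4 of the 10 Affymetrix rhesus macaque arrays of the study. The members were chosen by their sample titles: IVDS2-C1 and IVDS2-C2 hold cells of the central foci of colonies at IVDS2, and IVDS2-1 and IVDS2-2 hold differentiated cells at IVDS2. All cells came from 1 ES cell line of the rhesus macaque, ORMES6, which was kept on mouse embryonic fibroblast feeders and was induced to form hepatic foci on hESdF, a fibroblast-like cell type derived from human ES cells. IVDS2 and IVDS3 are in vitro differentiation stages 2 and 3 per the labels. The other arrays were 2 of the colony periphery (IVDS2-P), 2 of IVDS3 and 2 of undifferentiated ES cells, and they entered the fit for its estimate of the spread. The comparison asks what the dissected centre holds more or less of than the whole culture. How centre and periphery were separated, what share of the whole culture each makes up, the time in days and whether the repeats came from separate cultures are not given in the sources used here, so a p-value measures only the spread between these samples, which may be technical.

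As background, cells in the middle of an ES cell colony and cells at its edge differ in crowding, contact and access to secreted factors. BMP signalling can turn primate ES cells toward trophoblast- or amnion-like cells that express GATA3, TP63 and GABRP. WNT signals act through Frizzled and ROR receptors and are held back by secreted SFRP proteins. Interferon-stimulated genes such as IFIT1 and ISG15 form the antiviral program of most cells, while the MCM helicase and its loaders CDC6 and CDT1 license origins for DNA replication.

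Each value below is a log2 expression value relative to the median of the 10 arrays, so 1 unit is a doubling and no value is an absolute level. Arrays were compared with limma, and a gene was called at a Benjamini-Hochberg adjusted p under 0.05 over 13191 genes. In whole-sample RNA a difference can come from a different number of cells of a type or from different RNA per cell, which cannot be told apart.

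The colony centre differed from the whole culture at 767 of the 13191 genes (5.81%): 532 were higher in IVDS2-C (4.03% of the genes tested) and 235 were lower (1.78%). Among them 283 were higher and 69 lower by at least 2-fold, and 67 were higher and 6 lower by at least 4-fold. The median difference over all genes was -0.06. No called gene had overlapping arrays between the groups, but neither did 7807 genes in all, which is 59.2% of those tested. At the level of single probe sets, 1184 of 44210 were called higher (2.68%) and 359 lower (0.812%), and 560 of these 1543 probe sets (3.49% of those tested) had no single gene name.

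**Figure D1:**
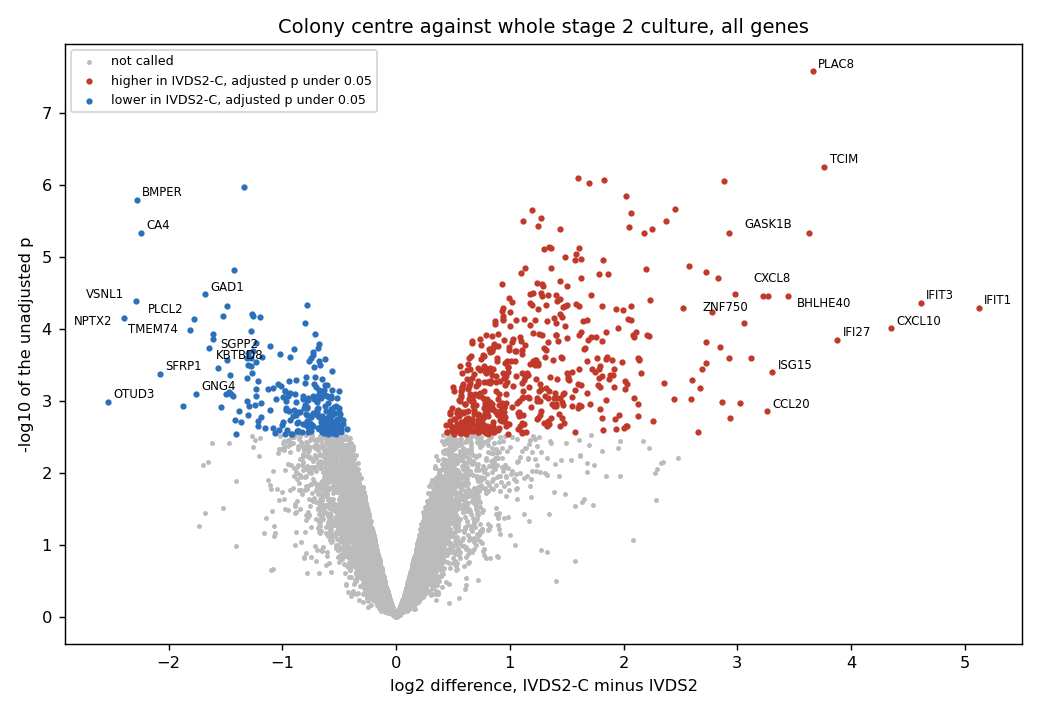
Every gene by its log2 difference, IVDS2-C minus IVDS2 (x axis), and the -log10 of its unadjusted p (y axis). The 532 red points are called higher, the 235 blue points called lower, and the labelled genes are the 12 leading rises and 12 leading falls; the rises reach 5.13 and the falls -2.53.

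The centre arrays were unequal. The called higher genes had a median of 0.87 in IVDS2-C replicate 1 and 1.24 in replicate 2 above the mean of the IVDS2 arrays, and the called lower genes had medians of -0.64 and -0.90. Replicate 2 lay farther from IVDS2 at 473 of the 532 higher and 210 of the 235 lower genes. The replicates of IVDS2-C differed with an SD over genes of 0.29, those of IVDS2-P with 0.25 and those of IVDS2 with 0.26. Those of ES cells differed with 0.37, the widest, and those of IVDS3 with 0.21, the narrowest, and both groups entered the pooled spread. The count of calls rested on the spread pooled over 5 groups and on single arrays: 12 genes were called with only the 4 arrays compared, 46 without IVDS2 replicate 2, 109 without IVDS2-C replicate 2, 496 without IVDS2 replicate 1 and 408 without an IVDS3 array, and 39 were called whichever array was left out (36 higher and 3 lower). Lower calls alone numbered 3 without IVDS2 replicate 2, 12 without IVDS2-C replicate 2, 97 without an IVDS3 array, 128 without IVDS2 replicate 1, 145 without an IVDS2-P array and 385 without IVDS2-C replicate 1. Of the 86 called genes that the naming rule chose (leading genes, up to 4 called members of each list, and landmarks), 13 kept their call in each of the 10 fits without 1 array: PLAC8, TCIM, GASK1B, GABRP, CDKN1A, LUM, SPAG6, TEKT1, ELAVL4, HOXA3, SKIL, BMPER and CA4. The other genes of these 86 lost it at least without IVDS2 replicate 2, and none of the 86 changed direction. The least stable were FOXA3 and STARD4, which kept the call in 1 of the 10 fits, and BAMBI, in 2. ASS1, BTG2, CLDN8, GPC3, P4HA2 and RSPH9 kept it in 3.

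**Figure D2:**
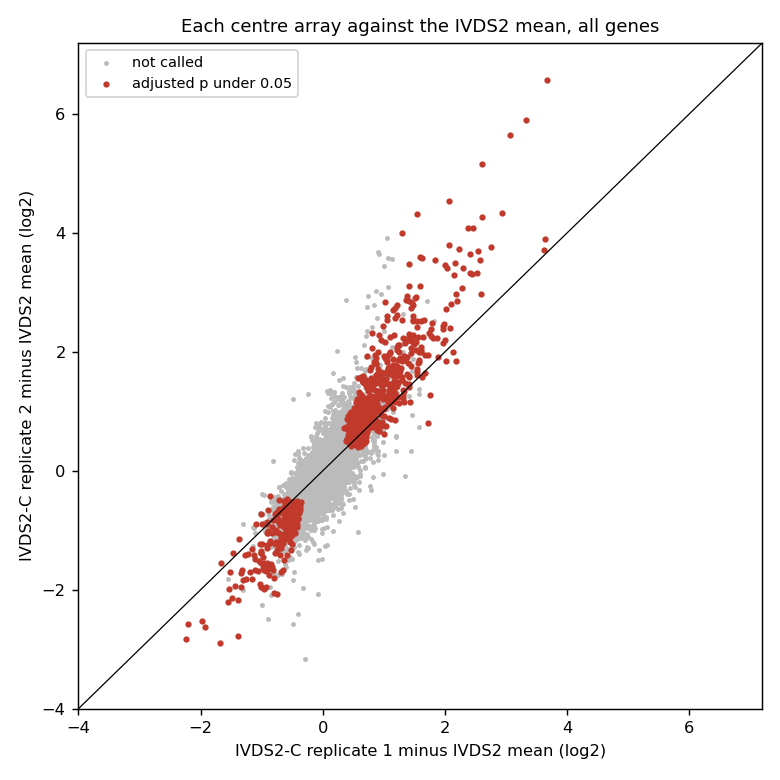
Each gene's log2 difference from the IVDS2 mean in IVDS2-C replicate 1 (x axis) and in IVDS2-C replicate 2 (y axis), with the line of equal values; red points are the 767 called genes. Most called genes lie on the side of the line where replicate 2 is farther from 0, as at 473 of the 532 higher genes.

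The leading rises included interferon-stimulated genes, chemokines and genes known from squamous or placental epithelium. IFIT1, an antiviral protein that binds foreign RNA, had values of 3.36 and 6.25 in IVDS2-C, against -0.22 and -0.43 in IVDS2. Both centre arrays were far above both whole-culture arrays, and IFIT1 was 34.9-fold higher (log2 difference 5.13 ± 0.71, SE, adjusted p = 0.00817 in limma, n = 2 each). Its gap between the centre arrays was wider than its gap between the whole-culture arrays. The related IFIT3 rose by 4.61 ± 0.63, and IFI27, another interferon-induced gene, by 3.88 ± 0.61. ISG15, a ubiquitin-like modifier, had values of 1.18 and 3.65 in IVDS2-C, against -0.75 and -1.03 in IVDS2.

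CXCL10, a chemokine induced by interferon, had values of 2.50 and 5.08 in IVDS2-C, against -0.56 and -0.56 in IVDS2 (log2 difference 4.35 ± 0.66). The neutrophil chemokine CXCL8 had values of 2.26 and 3.89 in IVDS2-C, against -0.13 and -0.26 in IVDS2. CCL20, which attracts lymphocytes and dendritic cells, had values of 1.35 and 2.36 in IVDS2-C, against -0.70 and -2.11 in IVDS2. For these chemokines the groups did not overlap, and CCL20 had the widest spread within IVDS2 of the 12 leading rises.

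PLAC8, first described in placenta, gave the smallest p of all genes. Its values were 3.62 and 3.71 in IVDS2-C, against 0.08 and -0.08 in IVDS2, so the replicates of each group nearly coincided while the groups lay 12.7-fold apart (log2 difference 3.66 ± 0.20, adjusted p = 0.000346). It was also called with only the 4 arrays compared (adjusted p = 0.00699). TCIM, a small regulator of transcription linked to WNT signalling, had values of 2.93 and 3.19 in IVDS2-C, against -0.55 and -0.86 in IVDS2. GASK1B, a Golgi-associated protein, had values of 2.42 and 3.81 in IVDS2-C, against -0.43 and -0.61 in IVDS2. ZNF750, which drives terminal differentiation of epidermis, rose by 3.23 ± 0.43, and BHLHE40, a transcriptional repressor, by 3.44 ± 0.45. The 12 leading rises were 9.39- to 34.9-fold and IVDS2-C replicate 2 was the farther centre array in each.

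The leading falls were smaller, from 3.05- to 5.78-fold, and several are known from neurons. Other genes of neurons rose, such as STMN2 by 2.86 and ELAVL4 by 2.23. Of 20 neural ectoderm genes, 4 rose and 2 fell. BMPER, a secreted modulator of BMP signals, had values of 0.34 and -0.36 in IVDS2-C, against 2.16 and 2.38 in IVDS2 (log2 difference -2.28 ± 0.21, adjusted p = 0.00238). CA4, a membrane-anchored carbonic anhydrase, had values of -1.44 and -1.99 in IVDS2-C, against 0.28 and 0.79 in IVDS2. Both groups kept apart in these genes. NPTX2, a neuronal pentraxin, had values of -2.08 and -2.44 in IVDS2-C, against -0.39 and 0.66 in IVDS2. VSNL1, a neuronal calcium sensor, had values of -0.69 and -1.89 in IVDS2-C, against 1.09 and 0.90 in IVDS2. The enzyme GAD1, which makes the transmitter GABA, fell by 1.68 ± 0.22 as the mean of 3 probe sets that ranged from -2.39 to -1.04.

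OTUD3, a deubiquitinase, fell by 2.53 ± 0.53, the largest fall, although only 1 of its 2 probe sets was called. SFRP1, a secreted WNT antagonist, had values of -1.38 and -2.77 in IVDS2-C, against -0.03 and 0.03 in IVDS2. The remaining leading falls, from -1.82 to -1.61, were TMEM74, PLCL2, GNG4 (a G protein subunit), KBTBD8 and SGPP2 (a phosphatase of sphingosine-1-phosphate).

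**Figure D3:**
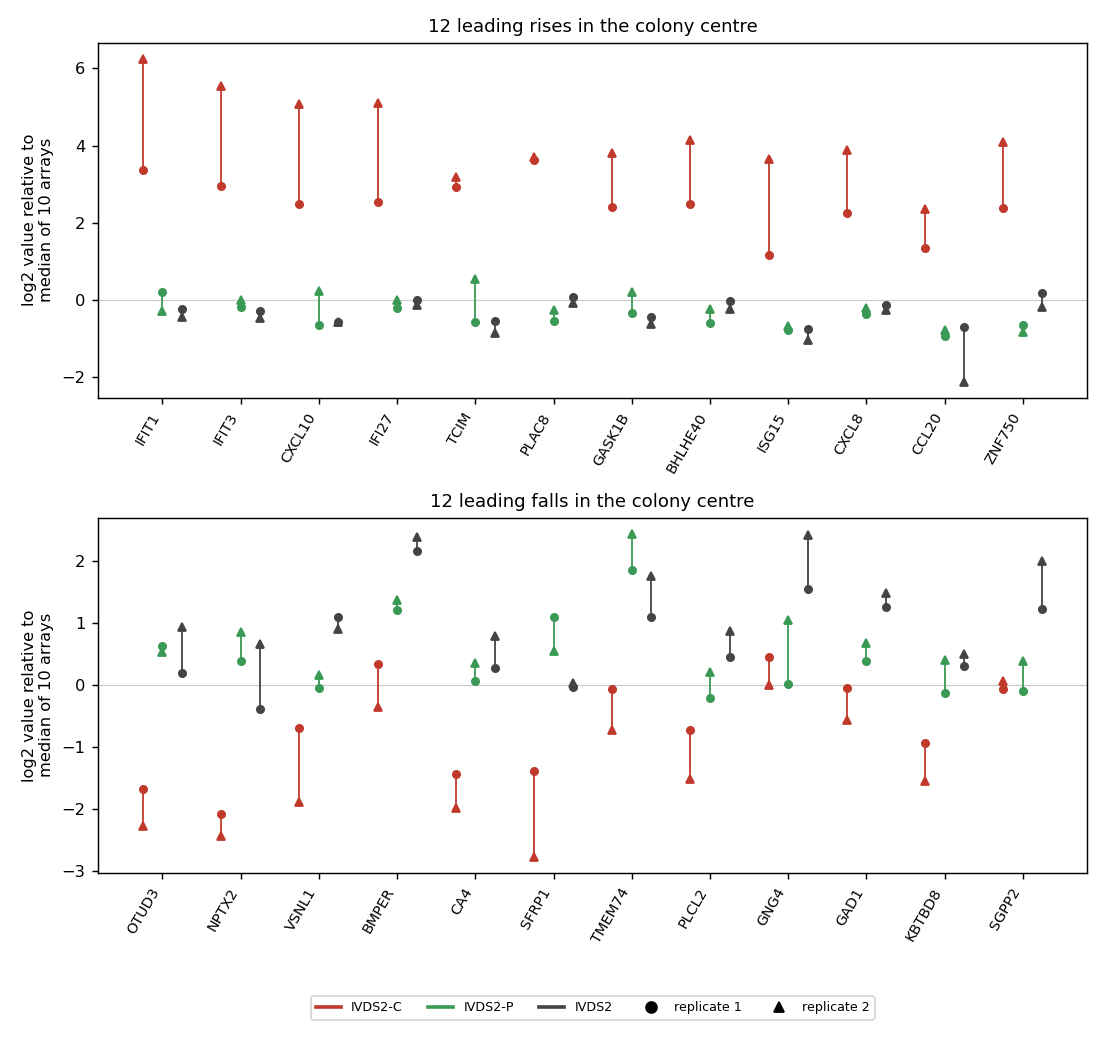
Values of the 12 leading rises (top) and 12 leading falls (bottom) in IVDS2-C, IVDS2-P and IVDS2, as log2 relative to the median of 10 arrays (y axis); circles are replicate 1, triangles replicate 2, and a line joins the replicates of a group. In the rises the red IVDS2-C points stand above the other groups, with IVDS2-C replicate 2 the higher of the centre arrays in all 12.

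Of 17 measured interferon-response genes, 7 rose and none fell: IFIT1, IFIT3, IFI27, ISG15, MX1, BST2 and IFIT2. Over all genes 4.03% were called higher and 1.78% lower. All 17 differences were positive, with a median of 1.19 against -0.06 over all genes. The mean of the list was 0.77 and 2.19 in IVDS2-C replicates 1 and 2, against -0.19 and -0.34 in IVDS2, so IVDS2-C replicate 2 carried the larger part. The sensors and transcription factors of the pathway in the list were not called, with STAT2 at 0.03, IRF7 at 0.36 and IFIH1 at 0.61. In limma 13 of the 17 genes had an unadjusted p under 0.05, so a missing call does not show that a gene was unchanged. No interferon gene of the list was called without IVDS2 replicate 2, 3 were called without IVDS2 replicate 1 and 13 without IVDS2-C replicate 1.

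Trophoblast and amnion genes rose at 8 of 24 measured members and fell at none, beside 4.03% of all genes called higher. The list median was 0.83. GABRP, a GABA receptor subunit of amnion and other epithelia, had values of 2.02 and 2.73 in IVDS2-C, against -0.15 and 0.15 in IVDS2 (log2 difference 2.38 ± 0.23, adjusted p = 0.00267). GATA3, a transcription factor of trophoblast, had values of 1.21 and 1.71 in IVDS2-C, against 0.13 and -0.13 in IVDS2. The immune checkpoint ligand VTCN1 rose by 1.55, the ligand WNT6 by 1.46 and the transcription factor ISL1 by 1.36. INSL4, a hormone of the primate placenta, and ITGB6, an integrin subunit, also rose. The 2 probe sets of INSL4 were unequal, at 0.01 and 2.71, and only 1 was called. Members that were not called included CDX2 at -0.10, TFAP2A at -0.08, HAND1 at 0.26 and KRT7 at 1.22. The ligand BMP4, also not called, had the lowest difference of the list, -1.20. The count of rises was 2 without IVDS2 replicate 2, 2 without IVDS2-C replicate 2 and 5 without IVDS2 replicate 1 or without an IVDS3 array.

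Of 20 measured genes of stratified epithelium, 6 rose (DSG3, KLF5, SFN, GRHL1, TP63 and S100A14) and 1 fell, with a median of 0.46. Among all genes 4.03% were called higher and 1.78% lower. DSG3, a desmosomal cadherin of epidermis, had values of 1.37 and 2.93 in IVDS2-C, against 0.15 and -0.17 in IVDS2. TP63, the master regulator of stratified epithelia, rose by 0.82 ± 0.14 as the mean of 6 probe sets. GRHL3, a factor of the epidermal barrier, went the other way: its values were -0.05 and 0.05 in IVDS2-C, against 1.37 and 1.48 in IVDS2 (log2 difference -1.42 ± 0.17, adjusted p = 0.00548). None of the rises of the list was called without IVDS2 replicate 2, 1 without IVDS2-C replicate 2, and 4 without IVDS2 replicate 1, without an IVDS2-P array or without an IVDS3 array.

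**Figure D4:**
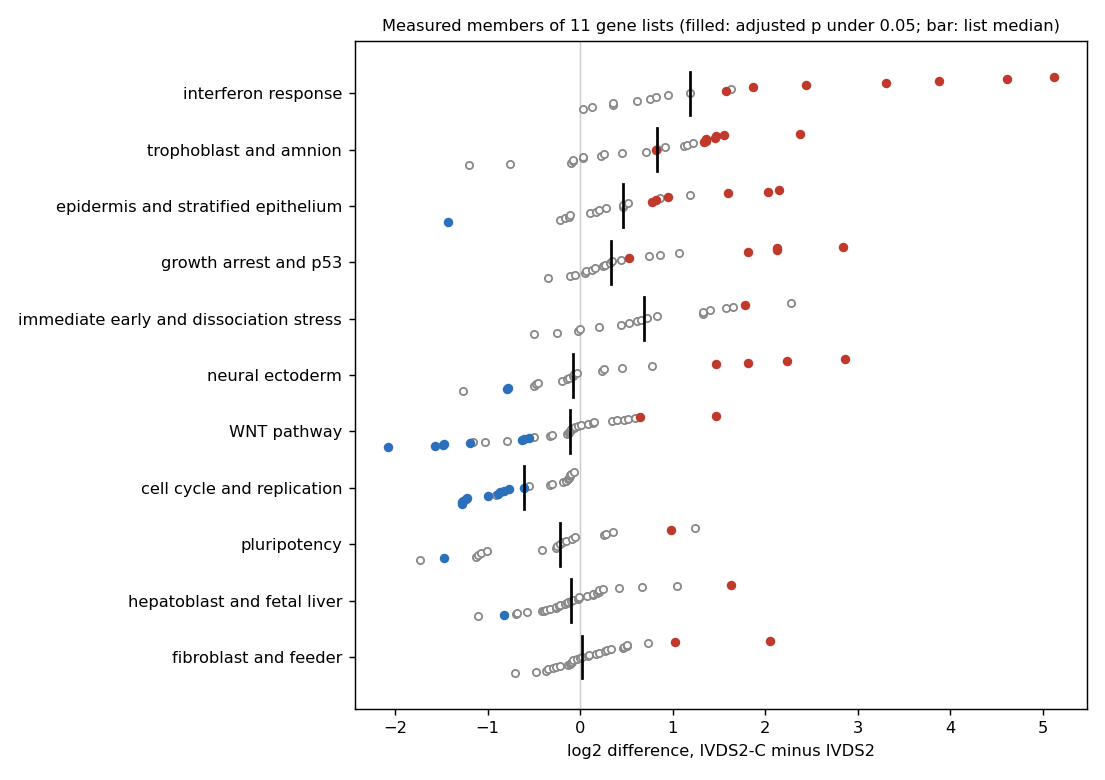
Log2 difference, IVDS2-C minus IVDS2 (x axis), of each measured member of 11 gene lists (rows); filled points are called, red higher and blue lower, and the black bar is the median of a list. The interferon list has the highest median, 1.19, and the cell cycle list the lowest, -0.61.

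Calls among cell-cycle genes were falls, and calls among growth-arrest genes were rises. Of 23 cell-cycle genes, 11 fell and none rose, beside 1.78% of all genes called lower. All 23 differences were negative, with a median of -0.61. The falls were MCM2, MCM3, MCM4 and MCM5 of the replicative helicase, and GINS2 and CDC45 that activate it. With them fell the loaders CDC6 and CDT1, the clamp PCNA, cyclin CCNE1 and the factor E2F1. MCM5 had values of -0.71 and -1.26 in IVDS2-C, against 0.12 and 0.47 in IVDS2 (log2 difference -1.28 ± 0.22, adjusted p = 0.0164). The 11 falls belong to the G1/S transition and to S phase. Genes of mitosis, which also had negative differences, were not called. The kinase CDK1 was at -0.11, cyclin CCNB1 at -0.12, TOP2A at -0.11 and the proliferation marker MKI67 at -0.32. A difference between phases was not tested. No fall of the list was called without IVDS2 replicate 2 or without IVDS2-C replicate 2, and 5 were called without IVDS2 replicate 1, without an IVDS2-P array or without an IVDS3 array.

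Of 20 growth-arrest and p53-related genes, 5 rose and none fell, beside 4.03% of all genes called higher. The list median was 0.34. CDKN1A, the cyclin-dependent kinase inhibitor p21, had values of 1.38 and 1.82 in IVDS2-C, against -0.20 and -0.23 in IVDS2 (log2 difference 1.82 ± 0.21, adjusted p = 0.00452). GADD45B, a stress-induced growth-arrest gene, had values of 1.22 and 2.33 in IVDS2-C, against -0.88 and -1.27 in IVDS2. The secreted stress factor GDF15 and the antiproliferative gene BTG2 both rose by 2.13, and RRM2B, a subunit of ribonucleotide reductase, by 0.53. MDM2 at 0.25, BBC3 at 0.07 and BAX at -0.34, which are known p53 targets, were not called. The count of rises was 1 without IVDS2 replicate 2, 2 without IVDS2 replicate 1, 2 without IVDS2-C replicate 2, 3 without an IVDS3 array and 8 without an ES array.

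Among 18 genes that handling or dissociation of cells can induce, 1 was called, beside 5.81% of all genes. It was ZFP36, which destabilises cytokine mRNAs, higher by 1.78 ± 0.22, and the list median was 0.69. The mean of the list was 0.32 and 0.60 in IVDS2-C, against -0.19 and -0.50 in IVDS2. Its uncalled members included JUNB at 2.29 and FOS at 1.41. The part of this in the chemokine and growth-arrest results was not tested.

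WNT pathway genes were mostly lower where called: 8 of 34 fell and 2 rose, with a median of -0.11. Across all genes 1.78% were called lower and 4.03% higher. The falls held the secreted antagonists SFRP1 and SFRP2, the receptors ROR1, ROR2, FZD7 and FZD8, and the transcription factors TCF7 and TCF7L1. FZD7 had values of -0.97 and -1.92 in IVDS2-C, against 0.19 and -0.11 in IVDS2 (log2 difference -1.49 ± 0.26, adjusted p = 0.0166). ROR2 had values of -0.01 and -0.53 in IVDS2-C, against 1.08 and 1.52 in IVDS2. The rises were WNT6 and the DKK receptor KREMEN1 (0.65). AXIN2, a common readout of WNT activity, was at -0.49 and was not called. No fall of the list was called without IVDS2 replicate 2, 1 without IVDS2-C replicate 2 and 2 without IVDS2 replicate 1, and neither rise was called without an IVDS3 array, without IVDS2 replicate 2 or without IVDS2-C replicate 2, and 1 without IVDS2 replicate 1 or without an IVDS2-P array.

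Among 29 genes of the BMP and TGF-beta pathways, 3 rose and 1 fell. SKIL, a repressor of SMAD transcription, had values of 0.99 and 1.49 in IVDS2-C, against -0.32 and -0.02 in IVDS2 (log2 difference 1.41 ± 0.18, adjusted p = 0.00767). The inhibitory SMAD7 rose by 1.55 and the pseudoreceptor BAMBI by 1.14, and BMPER was the fall. All of them modulate the pathway. The ligands BMP4 at -1.20 and BMP6 at 1.54 were not called. The Hippo target list had 2 rises of 21, ANKRD1 (1.93 ± 0.27) and VGLL3 (1.76 ± 0.27), the Notch list 1 of 19 (MAML2, 0.99), and the FGF and ERK list 1 fall of 23 (FGFR1, -0.80), where 4.03% of all genes were called higher and 1.78% lower. With 1 array left out at a time, BMP and TGF-beta rises ranged from 1 (without IVDS2 replicate 2, IVDS2-C replicate 2 or an IVDS3 array) to 4 and its falls from 1 to 3 (both highest without IVDS2-C replicate 1), Hippo rises from 0 (without IVDS2 replicate 2) to 3, Notch rises from 0 (without either IVDS2 array or IVDS2-C replicate 2) to 2, and FGF falls from 0 (without the same arrays) to 3 (without an ES array).

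Some neural, ciliary and patterning genes rose, while other neural and patterning genes fell. Of 20 neural ectoderm genes, 4 rose and 2 fell, with a median of -0.07. This count and the next ones stand beside 4.03% of all genes called higher and 1.78% called lower. ELAVL4, an RNA-binding protein of neurons, had values of 0.29 and 0.78 in IVDS2-C, against -1.23 and -2.16 in IVDS2 (log2 difference 2.23 ± 0.30, adjusted p = 0.00808). STMN2 and DCX, microtubule proteins of young neurons, rose by 2.86 and 1.47, and the transcription factor ZIC4 by 1.81. For DCX the probe sets were unequal, at 0.36 and 2.59, and 1 was called. None of these 4 neural rises was called between IVDS2-C and IVDS2-P, with differences from 0.44 (DCX) to 1.58 (STMN2). Their IVDS2-P minus IVDS2 differences ran from 1.04 (DCX) to 1.69 (ELAVL4), and only ELAVL4 was called there. The progenitor factors SOX3 and PAX7 fell by 0.79 and 0.78, and PAX6 was at 0.77 ± 0.48 and was not called. In the cilia list 3 of 14 rose. SPAG6, part of the central pair of motile cilia, had values of 0.68 and 1.09 in IVDS2-C, against -0.97 and -1.62 in IVDS2, and TEKT1 and RSPH9 rose by 1.14 and 0.79. In the list of retinoic acid and HOX genes 3 of 22 rose and 1 fell: the retinoic acid-degrading enzyme CYP26A1 (2.12), MEIS1 (1.44) and HOXA3 (1.34 ± 0.15, adjusted p = 0.00375) rose, and the retinoic acid carrier CRABP2 fell by 0.84. For HOXA3 the probe sets were unequal, at 0.12 and 2.56. RSPH9, CYP26A1, MEIS1 and HOXA3 were not called between IVDS2-C and IVDS2-P, where MEIS1 differed by 0.12 and HOXA3 by 0.23. SPAG6 (0.88) and TEKT1 (0.89) were called higher in IVDS2-C there. Without IVDS2 replicate 2 or without IVDS2-C replicate 2, 1 neural, 2 ciliary and 1 retinoic acid or HOX gene were called higher, and the last count was also 1 without IVDS2 replicate 1 or an IVDS3 array and 5 without an ES array.

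Liver genes gave 4 calls in 2 lists, 2 higher and 2 lower, beside 5.81% of all genes called. Of 33 hepatoblast and fetal liver genes, 1 rose and 1 fell, with a median of -0.10: FN1, the matrix protein fibronectin that fibroblasts also make, had values of 0.99 and 1.81 in IVDS2-C, against -0.37 and -0.08 in IVDS2, and GPC3, a fetal liver glypican, fell by 0.82. AFP, a plasma protein of the fetal liver, had values of -0.19 and -0.14 in IVDS2-C, against 0.03 and 0.30 in IVDS2 (log2 difference -0.33 ± 0.12, adjusted p = 0.152). APOB was at -0.37 ± 0.15 and SERPINA1 at 0.08 ± 0.12. FGB, the fibrinogen beta chain, had values of 0.50 and 0.10 in IVDS2-C, against -0.25 and 3.05 in IVDS2. It stood high in IVDS2 replicate 2 alone, was not called (log2 difference -1.10 ± 0.85), was called lower without IVDS2 replicate 1 (-2.75, adjusted p = 0.0219) and turned to 0.55 without IVDS2 replicate 2. Of 17 genes of mature hepatocyte metabolism 1 rose (CPT1A, of fatty acid oxidation, 1.65) and 1 fell (ASS1, of the urea cycle, -0.65), and none of 13 biliary genes was called in limma (7 had an unadjusted p under 0.05). Only 1 of 2 probe sets was called for CPT1A (0.59 and 2.71) and for GPC3 (-1.47 and -0.18).

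Endoderm and pluripotency genes gave calls in both lists, beside 5.81% of all genes called. In the definitive endoderm list FOXA3 and PRDM1 fell by 1.19 and 1.30 among 15 genes. FOXA3 lost its call when any 1 array other than IVDS2-C replicate 1 was left out. FOXA2 was at 0.13, GATA4 at 0.10, GATA6 at -0.22, HHEX at -0.08 and SOX17 at 0.63, none of them called. Of 19 pluripotency genes 1 rose (the tetraspanin CD9, 0.98) and 1 fell (SFRP2), with a median of -0.22. POU5F1, which encodes OCT4, had values of -0.50 and -3.38 in IVDS2-C, against 0.50 and -0.91 in IVDS2. Its groups overlapped, with 1 centre array far below all others of stage 2 (log2 difference -1.73 ± 0.79, adjusted p = 0.229). Without IVDS2-C replicate 1 its difference was -3.17 (adjusted p = 0.00794). DNMT3B, the de novo DNA methyltransferase, was at -1.11 ± 0.37, and at -1.63 (adjusted p = 0.0301) without IVDS2-C replicate 1. SOX2 was at -0.06 ± 0.21 and NANOG at 0.26 ± 0.19, neither called.

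Stromal and other cell-type markers were looked at because the ES cells were kept on fibroblast feeders and the foci were induced on fibroblast-like hESdF cells. Of 29 fibroblast and feeder genes 2 rose, beside 4.03% of all genes called higher. These were the matrix proteoglycan LUM and the collagen chain COL1A2, and the list median was 0.02. LUM had values of 1.87 and 2.23 in IVDS2-C, against -0.06 and 0.06 in IVDS2, and COL1A2 had 1.19 and 0.86 in IVDS2-C, against -0.08 and 0.08 in IVDS2. Other fibroblast genes were not called: COL1A1 was at -0.13 ± 0.24, COL3A1 at 0.10 and DCN at 0.51. The mean of the list was 0.16 and 0.14 in IVDS2-C, against -0.06 and 0.08 in IVDS2, and its part in the other results was not tested. In the mesenchymal transition list 4 of 13 rose, namely TGFBI (2.08), FN1, ZEB1 (0.82) and MMP2 (0.57), and VIM was at 0.22. The 2 probe sets of MMP2 were at 0.10 and 1.05, and only 1 was called.

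Epithelial genes gave 2 rises of 28, beside 4.03% of all genes called higher and 1.78% lower. The rises were the tight junction proteins CLDN1 (1.92) and CLDN8 (1.79). CDH1 was at 0.04, KRT8 at -0.69, KRT18 at 0.20 and KRT19 at -0.51, none of these called. Of 17 mesoderm and heart genes ISL1 and MEF2C (1.18) rose and MEOX1 fell by 1.26. Single rises, beside 4.03% of all genes called higher, came from HERPUD1 among 17 stress genes of unfolded proteins (1.46), LAMP2 among 19 lysosomal genes (0.98), P4HA2 among 25 hypoxia genes (0.70) and RPL24 among 28 ribosomal protein genes (1.96, 1 probe set), and in cholesterol synthesis and uptake STARD4 rose by 0.86 and ELOVL6 fell by 1.06 among 19. No call was made by limma among 14 basement membrane, 14 smooth muscle, 16 endothelial and blood, 14 neural crest and 19 mitochondrial genes, of which 3, 4, 1, 5 and 3 had an unadjusted p under 0.05.

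The periphery is a further point of reference within stage 2. It differed from the whole culture at 182 genes (1.38% of those tested, with 0.432% higher and 0.948% lower in IVDS2-P). The centre differed from the periphery at 1265 genes (9.59%, with 5.64% higher and 3.95% lower in IVDS2-C). Both comparisons share arrays with the one above. All 12 leading rises were also called higher in IVDS2-C than in IVDS2-P, and none of them was called between IVDS2-P and IVDS2. IFIT1, for example, had values of 3.36 and 6.25 in IVDS2-C, against 0.22 and -0.29 in IVDS2-P. Of the 12 leading falls 10 were also called lower in IVDS2-C than in IVDS2-P. The others were GNG4 and SGPP2, and SGPP2 was called lower in IVDS2-P than in IVDS2 as well (adjusted p = 0.0307).

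Among the 86 called genes that the naming rule chose, 13 were called both in IVDS2-C and in IVDS2-P against IVDS2. Over all genes 1.38% were called between IVDS2-P and IVDS2. The 86 were chosen in part for large differences from IVDS2, and both comparisons use the same IVDS2 arrays. A shift of those arrays would enter both, so the 13 genes are a description, and the same count over all genes was not made. For 6 of them (GABRP, WNT6, GATA3, ISL1, COL1A2 and TP63) the whole culture lay between the parts. GABRP had values of 2.02 and 2.73 in IVDS2-C and -2.22 and -2.40 in IVDS2-P, against -0.15 and 0.15 in IVDS2, with no overlap among the 3 groups. For the other genes the whole culture lay outside both parts: it was lowest for ELAVL4, SPAG6, ZFP36, HOXA3 and ZEB1, and highest for GRHL3 and SGPP2. ZFP36 had values of 0.37 and 0.80 in IVDS2-C and 0.01 and -0.01 in IVDS2-P, against -1.03 and -1.36 in IVDS2.

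**Figure D5:**
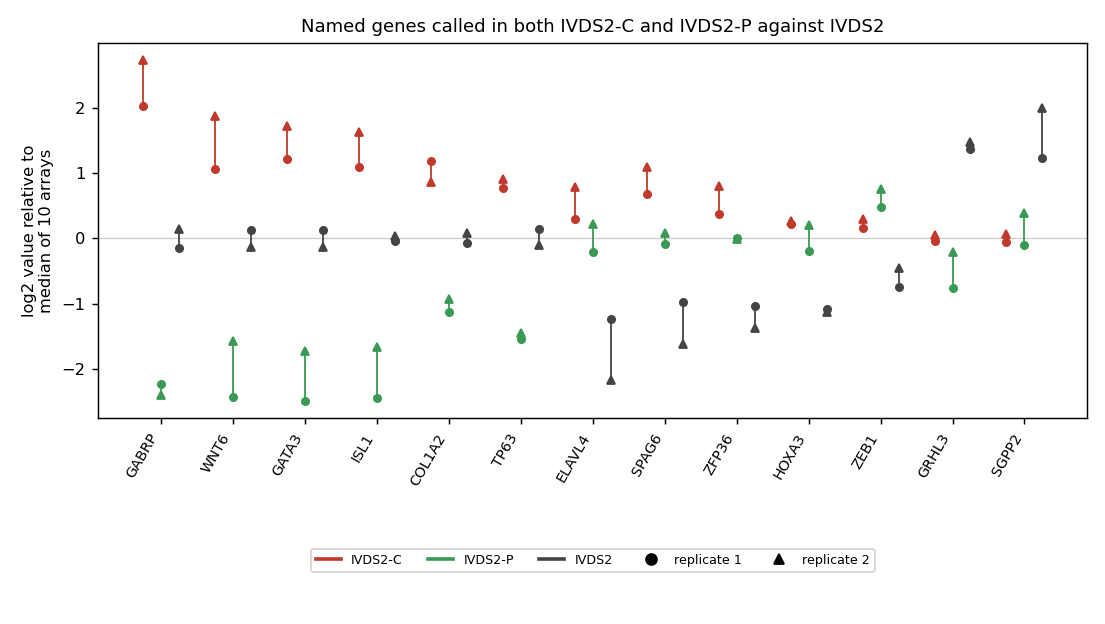
Values of the 13 genes, of the 86 that the naming rule chose, called against IVDS2 in both IVDS2-C and IVDS2-P, as log2 relative to the median of 10 arrays (y axis), in IVDS2-C, IVDS2-P and IVDS2; circles are replicate 1 and triangles replicate 2. The whole culture lies between centre and periphery for the first 6 genes, below both for the next 5 and above both for the last 2.

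Stage 3 and ES cells place some of the leading members on the whole series, as a description, and no single order held for all. PLAC8 had values of 5.27 and 4.63 in IVDS3 and -0.19 and -0.42 in ES cells, so the centre value lay between them. SFRP1 had values of -3.82 and -4.02 in IVDS3 and 2.08 and 2.48 in ES cells, with the centre again in between. BMPER did not follow this order: it had -0.52 and -0.64 in IVDS3 and -0.34 and -0.48 in ES cells, so that its 2.16 and 2.38 in IVDS2 stood above both ends. The IVDS2 arrays also stood above both ends for GNG4, SGPP2, TMEM74, GAD1 and VSNL1. Among the rises, both centre arrays lay above IVDS3 for TCIM (IVDS3 1.83 and 1.67), CXCL8 (0.76 and 0.73) and CCL20 (0.25 and 0.16). CCL20 also had 2.28 in ES replicate 2, near the higher centre array.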

How the data were processed

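RNA from 10 arrays in 5 groups of 2 was analysed, with groups taken from the sample titles. The authors deposited RMA values, per the submitters' processing notes, without a version, and they are read here as log2 from their size (largest range over arrays 9.51). In the deposited table the median of each probe set across the 10 arrays was 0 (0 medians beyond 1e-05), so no level, filter on dim probe sets or quantile normalization could be had. The number of arrays limits the precision.

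The 84 control probe sets were left out of 44294. Of 44210 tested, 22802 had 1 gene, 316 several and 21092 none in the platform annotation. Probe sets of 1 gene were averaged (13191 genes, 7438 with 1 probe set). Symbols of 22507 probe sets were matched to RefSeq by gene number, with 0 changed. limma 3.58.1 in R 4.3.3 fitted a term per group on all 10 arrays (5 residual degrees of freedom, prior 3.94, prior SD 0.142), two-sided. "Rose" and "fell" mean an adjusted p under 0.05.

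The members, the 33 gene lists (631 of 892 genes measured) and the tests were chosen with earlier results of these data known. Named are the 12 largest rises and falls with non-overlapping arrays and a gene symbol other than a locus number, up to 4 largest called members of each list, and 23 measured of 24 landmark genes. Other genes were named after their values were seen. Some genes stand in several lists. Alternatives were the 4 arrays compared alone, the 6 arrays of stage 2, a replicate block, centring each array, array weights, the most variable probe set, a test against a 1.5-fold change, and leaving out each array.

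In simulated data for the comparison of IVDS2-C with IVDS2, 200 of 13191 genes were changed. In these simulated data the fit recovered 74% of 2-fold and 97% of 4-fold changes, and 6.04% of calls were false. The rates describe the simulated data only. Whether they hold for the calls on the deposited arrays was not tested. There the centre arrays were unequal, and the count of calls depended on which array was left out.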

Additional observations from a re-analysis of the deposited data

How the results depend on the processing

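Against 767 called genes (532 higher, 235 lower), 1543 probe sets and 90 list genes, the 4 arrays compared alone gave 12 genes (11 and 1), 26 probe sets and 5 list genes, with 0 rises in the interferon, trophoblast, epidermis, growth-arrest and WNT lists and 0 falls in the WNT and cell cycle lists; in this fit fewer arrays estimate the spread. The 6 arrays of stage 2 gave 280 genes (213 and 67), 875 probe sets and 31 list genes, with 2 interferon, 3 trophoblast, 1 epidermis, 3 growth-arrest and 0 WNT rises, and 2 WNT and 1 cell cycle falls. A test against a 1.5-fold change gave 29 genes (26 and 3), since it asks for more than any difference. Array weights gave 1083 genes, with 423 lower, 8 growth-arrest rises and 1 trophoblast fall. Using 1 probe set per gene, the most variable, gave 7 cell cycle falls and 1 trophoblast fall. The replicate block gave 764 genes and 7 cell cycle falls. Deviations of same-numbered samples correlated over genes at 0.06 for IVDS2-C with IVDS2, 0.224 for IVDS2-C with IVDS2-P and 0.277 for IVDS2-P with IVDS2, and from -0.212 to 0.277 over all pairs of groups, so the numbers were not taken as pairing the samples. For array weights, the probe set choice and the block, the cause was not tested.

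Leaving out 1 array at a time gave 46 to 1017 genes (43 to 632 higher, 3 to 385 lower), 89 to 2113 probe sets and 10 to 119 list genes. Rises ranged over 0 to 13 for interferon, 2 to 9 for trophoblast, 0 to 9 for epidermis, 1 to 8 for growth arrest and 0 to 3 for WNT. Falls ranged over 0 to 8 for WNT, 0 to 12 for the cell cycle, and 0 to 1 for trophoblast and epidermis. None of the 86 called genes that the naming rule chose changed sign under any of these alternatives. Quantile normalization and filters on dim probe sets were not run, because the deposited values are centred, and signal over background is unknown.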

Other observations

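The following gene families were chosen after their values were seen, and their counts stand beside 4.03% of all genes called higher and 1.78% called lower. Of 28 chemokine ligands 4 rose and none fell, with a median of 0.01: CXCL10, CXCL8, CCL20 and CCL2. The cytokines IL6 and IL1B also rose. IL6 had values of 2.06 and 2.13 in IVDS2-C, against 0.79 and 0.25 in IVDS2 (log2 difference 1.58 ± 0.18, adjusted p = 0.00452 in limma), and IL1B rose by 1.60 ± 0.13. Of 14 S100 calcium-binding proteins 5 rose (S100A6, S100A10, S100A11, S100A14 and S100P), and of 12 PARP family members 3 (PARP8, PARP9 and PARP14). Of 8 MCM genes 5 fell. Keratins gave 1 rise of 31 (KRT16), and 43 histone genes gave no call in limma. Among calls that held whichever array was left out were LCP1, an actin-bundling protein of blood and cancer cells (2.25 ± 0.23), and the fatty acid transporter CD36 (2.07 ± 0.20).

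The mean of both dissected parts was set against the whole culture after seeing the data; such a mean can be carried by 1 part and does not test that each differs. In limma the mean of IVDS2-C and IVDS2-P was called higher than IVDS2 at 72 and lower at 31 of 13191 genes. Named next are the largest of these whose 4 dissected arrays all lay beyond both whole-culture arrays. They were CDH18 (2.18 ± 0.30), GASK1B, ELAVL4 and AGT on the higher side, and CCKBR (-2.03 ± 0.36), GRHL3, BMPER and COCH on the lower side. For GASK1B, IVDS2-C minus IVDS2 was 3.63, but IVDS2-P minus IVDS2 was 0.46 (adjusted p = 0.640 in limma). How many of all genes had such non-overlapping arrays was not counted. KRT8 had values of 0.06 and 0.03 in IVDS2-C and -1.45 and -0.84 in IVDS2-P, against 0.50 and 0.97 in IVDS2. These genes are reported as values.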
